A study of Arabidopsis thaliana with 11 samples.

Results

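PAP20 (locus AT3G52780) is an Arabidopsis gene of the purple acid phosphatase family, and its messenger RNA was followed in sorted root cells with and without salt. It is 1 of 13356 genes that had a probe set of their own in the annotation used, and it is read by the only one of 22746 tested probe sets whose annotated symbol is PAP20. It was chosen because it stood out in an earlier look at the salt response of cortex cells in these data, so its values on the cortex arrays are given below as a description without a test.

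The study used 11 Affymetrix arrays of RNA from flow-sorted protoplasts of 7-day-old seedlings. Of the 4 groups, pericycle cells of line J2731 with salt had 3 arrays, pericycle cells of line J2731 without salt had 2, cortex cells of line J1551 with salt had 3 and cortex cells of line J1551 without salt had 3. Salt-treated seedlings grew for 5 days in control medium. They then had a day in 25 mM NaCl plus 0.22 mM CaCl2, followed by a day in 50 mM NaCl plus 0.375 mM CaCl2, which makes 2 days of salt. Control seedlings stayed in control medium for all 7 days. All plants grew in the same quarter-strength MS medium with sucrose, all roots were digested to protoplasts, and all RNA was amplified before labelling. Each cell type comes from a single fluorescent line, so line and cell type cannot be told apart. Replicates are separate tanks of seedlings. In a bulk sample of sorted cells, fewer expressing cells and less RNA per cell cannot be told apart either.

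Purple acid phosphatases are metal-containing enzymes that release inorganic phosphate from organic phosphate compounds. In Arabidopsis, several members are secreted or vacuolar and are known for recycling and scavenging phosphate, and some are induced when phosphate is scarce. In the root, cortex cells form the layer between epidermis and endodermis, and pericycle cells surround the vascular tissue and give rise to lateral roots. Among RefSeq genes of assembly TAIR10.1, 27 are named PAP with a digit and annotated as purple acid phosphatases. PAP20 was the only 1 of these with a single-gene probe set in the annotation used, so no other family member was analysed here. Its neighbourhood in gene order holds PAP21, the third annotated gene beyond it. Whether the PAP20 probe set also reads related transcripts was not tested.

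PAP20 was highest in cortex cells under salt. Its log2 values there were 6.68, 6.90 and 6.80, against 3.10, 3.36 and 4.20 in cortex cells without salt. Every salt array lay well above every control array, as in 19.3% of all probe sets, a share from which nothing is read because the gene was chosen on this contrast. The mean was 6.80 ± 0.11 (SD, n = 3) with salt and 3.55 ± 0.574 (SD, n = 3) without it. The difference of 3.24 ± 0.318 (log2, limma SE) corresponds to 9.46-fold. It was the second largest rise among the tested probe sets in cortex, whose median difference was 0.01.

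The spread of PAP20 was uneven in cortex. Among cortex control arrays its SD exceeded that of 97.5% of probe sets, with replicate 3 the highest of the group, whereas among cortex salt arrays its SD exceeded that of 36.9%. Without cortex control replicate 3 the salt difference was 3.56, and without cortex control replicate 1 it was 3.02. These were the extremes when any 1 of the 11 arrays was left out.

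In pericycle cells PAP20 was low with and without salt. Its log2 values were 2.29, 3.36 and 2.95 with salt, against 2.02 and 2.25 without it. Both control arrays and salt replicate 1 lay under 2.81, the 40th percentile of probe set means, below which a probe set is called dim here and a fold change can be understated. The salt arrays all lay above both control arrays, with 2.29 against 2.25 at the closest pair, and 10.2% of all probe sets were separated in this way. The means were 2.87 ± 0.537 (SD, n = 3) with salt and 2.14 ± 0.159 (SD, n = 2) without it.

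**Figure D1:**
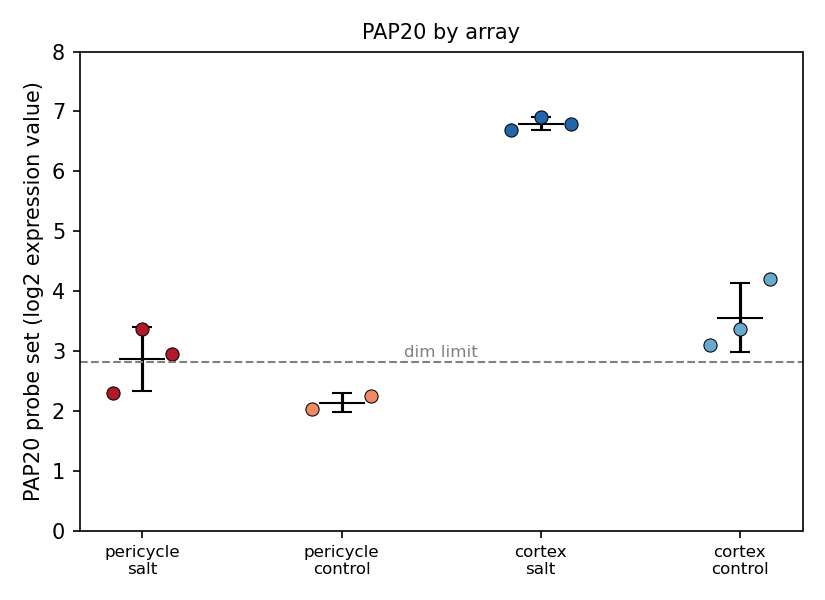
Log2 expression value of the PAP20 probe set (vertical axis) on each of the 11 arrays, by group, with the group mean and SD as a bar and whiskers. The 3 cortex salt arrays sit between 6.68 and 6.90, above all other arrays, and the dashed line marks the dim limit of 2.81.

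The pericycle arrays took no part in choosing PAP20, and this contrast was tested. The difference between pericycle cells with and without salt was 0.73 ± 0.355 (log2, limma SE, n = 3 and 2), and the limma fit over all probe sets gave an adjusted p of 0.357 (unadjusted p = 0.0662). PAP20 was therefore not among the 1.99% of probe sets called in this comparison at an adjusted p under 0.05. The 95% interval ran from -0.06 to 1.52, or from 0.96-fold to 2.88-fold, so at this number of arrays the range still held both no difference and a rise of nearly that size. A difference at least this large and positive was found in 8.38% of all probe sets. The limma error here draws on the spread of all groups, including the cortex arrays on which PAP20 was chosen. With only the pericycle arrays in the fit the limma adjusted p was 0.833. Without cortex control replicate 3 it was 0.287. An exact two-sided permutation test over the 5 pericycle arrays gave p = 0.2, the smallest value that 10 arrangements allow.

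Pericycle salt replicate 1, the lowest of the 3 salt arrays for PAP20, also stood apart from its group over all probe sets. It had an array weight of 0.171, the lowest of the 11, and a GAPDH 3' minus 5' difference of 1.00 (log2), the highest of the 11 and a sign of RNA quality. Without it the pericycle difference for PAP20 was 1.02 (limma adjusted p = 0.118). Without pericycle salt replicate 2, the highest salt array, it was 0.49. Over the pericycle arrays the GAPDH difference was 0.48 to 1.00 with salt, against 0.28 and 0.51 without it.

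Markers of other cell types also had unequal levels in the pericycle groups, though none passed the test. The phloem marker OPS was 6.51 to 7.80 with salt, against 5.66 and 6.30 without it. Its salt arrays lay above both control arrays, as in 10.2% of all probe sets. The OPS difference was 1.10 ± 0.363 (log2, limma SE, adjusted p = 0.17). The root hair markers EXPA7 and EXPA18 had list means of 2.57 to 4.36 with salt, against 3.61 and 4.33 without it, and these overlapped. EXPA18 differed by -1.31 ± 0.566 (adjusted p = 0.291) and EXPA7 by only -0.22 ± 0.534 (adjusted p = 0.898). The part of other cell types or of RNA quality in the pericycle salt differences of PAP20 and of the phosphate genes below was not tested.

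Levels of PAP20 differed between the cell types in both conditions. Without salt, the means of 2.14 in pericycle and 3.55 in cortex differed by -1.42 ± 0.355 (log2, pericycle minus cortex), and both pericycle arrays lay below all 3 cortex arrays, as in 22.4% of probe sets. With salt, the means of 2.87 in pericycle and 6.80 in cortex differed by -3.93 ± 0.318, a level 15.2-fold lower in pericycle, and again the arrays did not overlap, as in 19.1% of probe sets. This difference under salt ranked 13 from the most negative of the 22746. The salt response itself was smaller in pericycle than in cortex by 2.51 ± 0.477 (log2). Both pericycle control arrays and pericycle salt replicate 1 lay under the dim limit of 2.81. The differences between cell types can therefore be understated. The pericycle salt response can be understated too, which would overstate the gap between the responses. All of these contrasts use the cortex arrays on which PAP20 was chosen, and no test is given.

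Ordered by mean, the groups ran from cortex with salt, through cortex without salt and pericycle with salt, to pericycle without salt. Cortex with salt stood clear of the rest. Pericycle arrays with salt (2.29 to 3.36) and cortex arrays without salt (3.10 to 4.20) overlapped, so this neighbouring pair was not separated by its spread. Of these steps only that between pericycle with and without salt was tested, and it missed the threshold above.

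**Figure D2:**
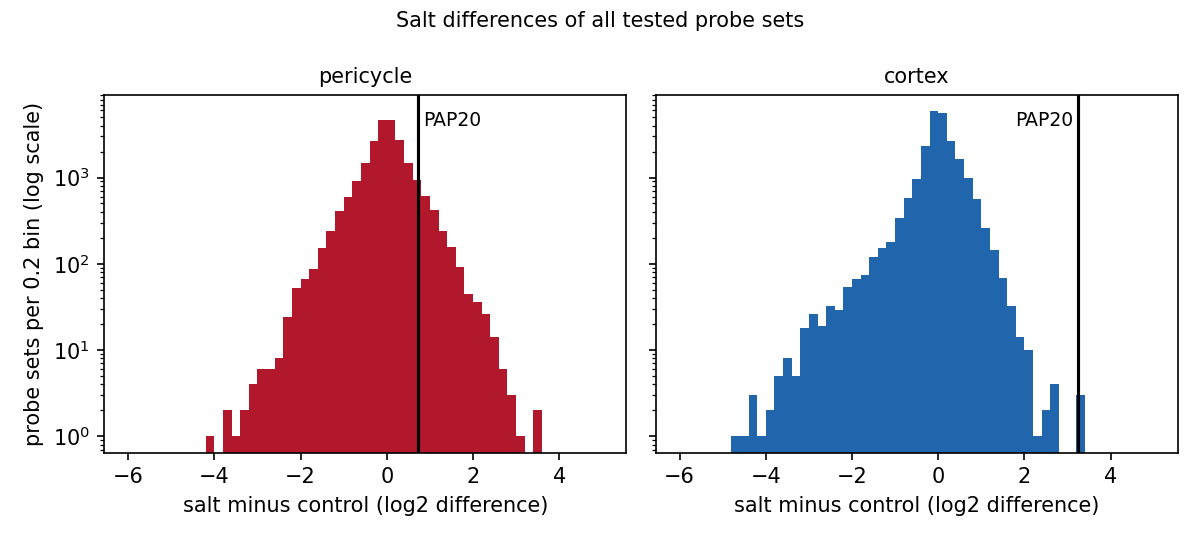
Distribution of the salt minus control log2 difference (horizontal axis) over the 22746 tested probe sets, as the number of probe sets per bin on a log axis, in pericycle (left) and cortex (right). The vertical line marks PAP20, at 0.73 inside the main body in pericycle and at 3.24 at the far right end in cortex.

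The PAP20 salt difference in cortex lay between 3.02 and 3.56 in every alternative run. Most of these runs could not move it, since it is a difference of group means. Changes to the error model other than array weights, to the filter or to the pericycle arrays leave it as it is. Array weights alter the group means themselves. Both extremes came from leaving out a cortex control array. The pericycle difference lay between 0.49 and 1.02 and missed the threshold in each run. In the plot of both differences by setting the 2 ranges do not overlap. The runs reuse the same arrays, so these ranges do not measure the spread between replicates. The cortex range also comes from the arrays on which PAP20 was chosen, and no conclusion is drawn from the gap.

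**Figure D3:**
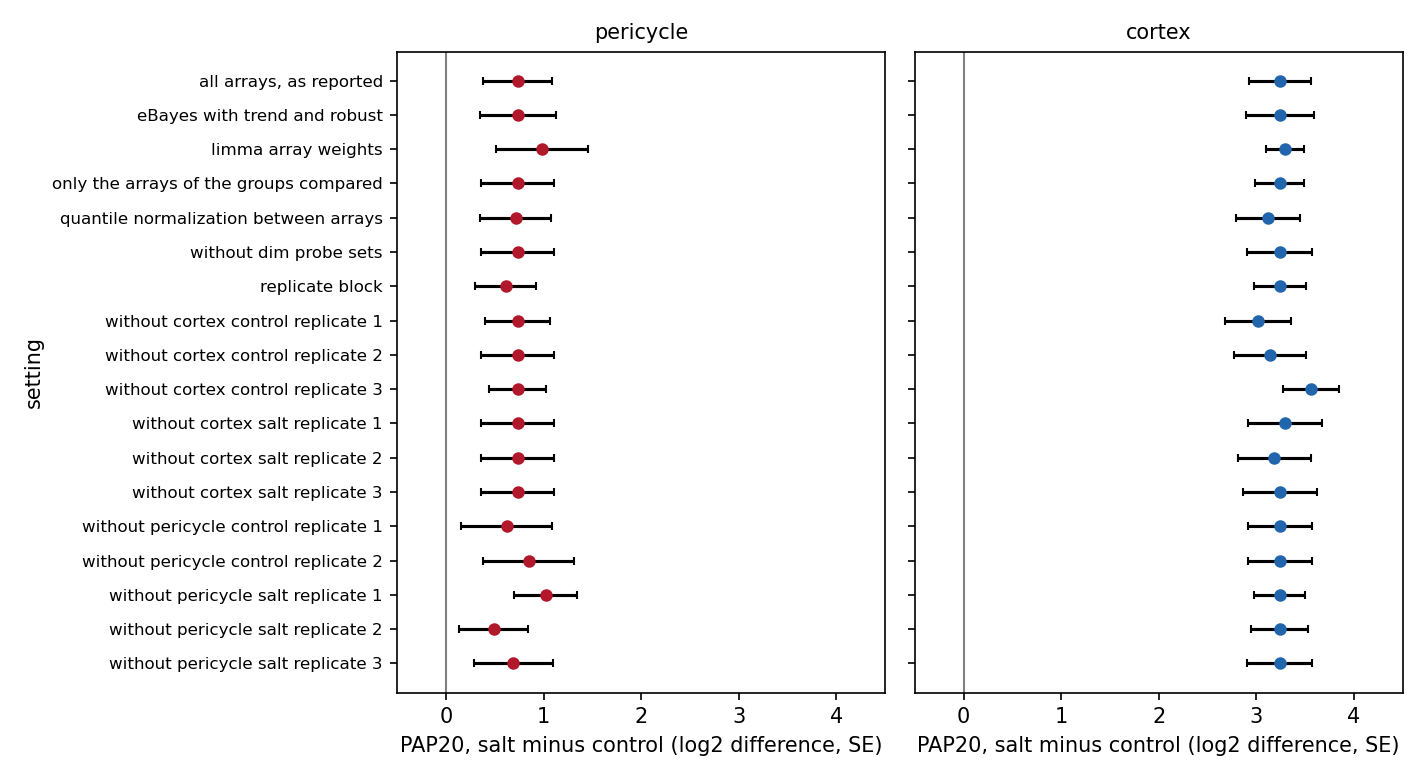
Salt minus control log2 difference of PAP20 with its limma SE (horizontal axis) under each setting (rows), in pericycle (left) and cortex (right). All cortex estimates lie at 3.02 or above and all pericycle estimates at 1.02 or below.

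The 8 single-gene probe sets whose profiles were nearest PAP20 were found by the root mean square difference of log2 values centred on their mean over the 11 arrays, among 7438 that were not dim. The nearest was AT5G38030, at 0.46. It was followed by AT5G01870 (0.64), AT1G79770 (0.70), AT1G15330 (0.73), JRG21 (0.75), AT1G66360 (0.75), AT1G72140 (0.81) and IAGLU (0.82). For scale, the median of this distance over the searched probe sets was 1.81. The arrays share cell type and treatment, and likeness over so few groups says nothing of shared control.

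The search kept AT5G38030 and AT1G15330 only through their cortex salt arrays. Their means over all arrays were 3.03 (AT5G38030) and 2.89 (AT1G15330), but over the 8 arrays outside that group they were 2.05 and 2.18, under the dim limit of 2.81.

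For AT5G38030, the nearest profile, the values were 5.49 to 5.72 in cortex cells with salt, against 1.88 to 2.89 in cortex cells without salt, and the difference of 3.21 ± 0.266 (log2, SE) stood beside 3.24 for PAP20. The cortex control mean of 2.44 was under the dim limit, so this difference can be understated. In pericycle its values were 1.48 to 2.15 with salt, against 1.67 and 1.71 without it, all under the dim limit. Its pericycle difference was 0.22 ± 0.298.

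JRG21, a jasmonate-regulated gene, and IAGLU, which encodes a glucosyltransferase that conjugates the auxin indole-3-acetic acid, are the named genes among the nearest. JRG21 was 1.91 ± 0.345 higher with salt in cortex and 1.54 ± 0.386 higher with salt in pericycle (log2, SE). IAGLU was 1.32 ± 0.377 higher with salt in cortex, while its pericycle difference of -0.06 ± 0.422 was much smaller than its error. This pericycle difference changed sign, from -0.46 without pericycle salt replicate 2 to 0.44 without pericycle salt replicate 1. In pericycle the JRG21 salt arrays (8.10 to 8.94) lay above both control arrays (6.43 and 7.66), as in 10.2% of all probe sets.

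The remaining genes are known by locus only, and their cortex differences ran from 1.37 (AT1G72140) to 2.37 (AT1G15330). AT5G01870 resembled JRG21 in pericycle, with 3.29 to 4.57 under salt against 2.30 and 3.15 without it. AT1G66360 went the other way in pericycle, by -0.30 ± 0.283 (log2, SE), a difference close to its error. Without pericycle control replicate 2, its only pericycle array above the dim limit, the difference was 0.08. For AT1G79770 the pericycle difference of 0.28 ± 0.328 became -0.005 without pericycle control replicate 1. Pericycle arrays overlapped with cortex control arrays for AT5G38030, AT1G15330 and JRG21, as for PAP20. For the other nearest genes every pericycle array lay below every cortex array. Over all probe sets, pericycle arrays lay below cortex arrays in this way in 22.4% without salt and in 19.1% with salt. The share separated in both conditions at once was not computed. Cortex control replicate 3, the highest control array for PAP20, was also the highest for each of the 8 except AT5G01870, for which it was the lowest. These values also follow from the choice of the genes by likeness, and no test is given.

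**Figure D4:**
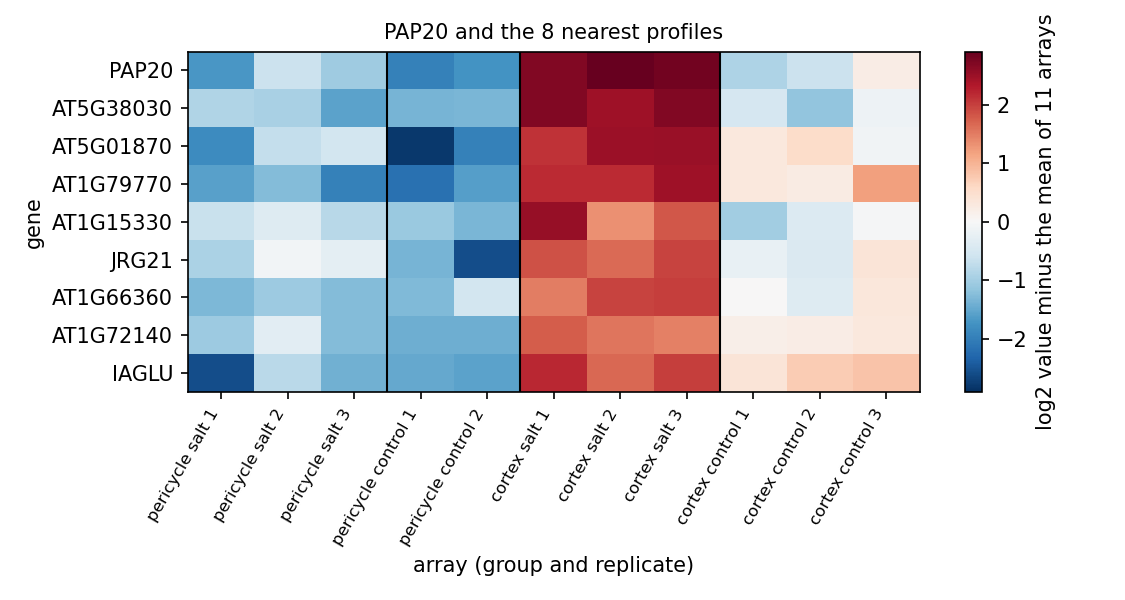
Log2 value minus the mean of the 11 arrays (colour) for PAP20 and the 8 nearest profiles (rows, nearest first) on each array (columns, grouped by vertical lines). Each gene shown is highest on the 3 cortex salt arrays, and most pericycle values lie below the mean of the gene.

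The only other single-gene probe set with a symbol of PAP and a digit was PAP85. It is a gene of the vicilin-like seed storage proteins and not a phosphatase, so it shares the letters of the symbol and not the family. Its values were between 1.53 and 2.12 on all arrays, under the dim limit. Its salt differences were -0.11 ± 0.156 in cortex (adjusted p = 0.919) and -0.37 ± 0.175 in pericycle (adjusted p = 0.338), and it passed in none of the 5 limma comparisons.

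Of the 3 annotated genes on each side of PAP20, only AT3G52800 had a single-gene probe set in the annotation used. It was 9.33 to 9.60 in cortex cells with salt, against 9.97 to 10.03 in cortex cells without salt. The direction was opposite to that of PAP20, but the difference of -0.56 ± 0.165 missed the threshold (adjusted p = 0.11). It passed with array weights (adjusted p = 0.0043) and with only the groups compared (adjusted p = 0.0127). In pericycle its difference with salt was 0.13 ± 0.185 (adjusted p = 0.805). Without salt it was lower in pericycle than in cortex by 0.63 ± 0.185 (log2, adjusted p = 0.0452), a call that was lost with array weights, with quantile normalization, without dim probe sets, with the replicate number as a block, and without any 1 of the cortex arrays or either pericycle control array (adjusted p between 0.0641 and 0.166).

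A list of 38 genes of phosphate sensing, transport and starvation response gave the wider setting, and 3 of them had a single-gene probe set. These are LPR1 and LPR2, multicopper oxidases of the root growth response to low phosphate, and SIZ1, a SUMO ligase that acts in phosphate starvation signalling. With salt in cortex, limma called 0 of 3 (background 4.16%), and 0 of 3 had an unadjusted p under 0.05. Their median difference in cortex was 0.29, against 0.01 for all probe sets. LPR2 differed by 0.29 ± 0.247 (adjusted p = 0.758), SIZ1 by 0.39 ± 0.225 (adjusted p = 0.516) and LPR1 by -0.23 ± 0.365 (adjusted p = 0.932).

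With salt in pericycle, 1 of 3 was called (background 1.99%) and the median difference was 0.89, against 0.00 for all probe sets. SIZ1 had 6.64, 6.25 and 5.78 with salt, against 5.04 and 5.06 without it, a rise of 1.17 ± 0.252 (log2, SE; adjusted p = 0.0481). This call was lost in each of the 6 alternatives of model, scaling or filter that were run, with adjusted p between 0.0505 and 0.612, and also without any 1 of the cortex arrays, either pericycle control array or pericycle salt replicate 2. The other SIZ1 probe set differed by -0.64 ± 0.3 (adjusted p = 0.332), in the opposite direction. LPR2 differed by 0.86 ± 0.276 (adjusted p = 0.156). This was 1.33 without pericycle control replicate 1 (adjusted p = 0.0208) and 0.39 without pericycle control replicate 2 (adjusted p = 0.55). LPR1 differed by 0.89 ± 0.408 (adjusted p = 0.321), or by 0.40 without pericycle salt replicate 1 (adjusted p = 0.372). The phloem and root hair markers and the GAPDH difference of these same arrays, given above, bear on SIZ1, LPR1 and LPR2 alike, and their part was not tested. The difference of salt responses was called for 0 of 3 (background 0.835%), with 1 at an unadjusted p under 0.05.

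Between cell types, LPR2 showed the reverse of the PAP20 pattern. Its values were 5.46 to 5.80 in pericycle with salt, against 2.24 to 2.61 in cortex with salt, and it was higher in pericycle by 3.24 ± 0.247 (log2, SE; adjusted p = 2.38e-05). Without salt it was 4.28 and 5.23 in pericycle, against 1.85 to 2.30 in cortex, and it was higher in pericycle by 2.67 ± 0.276 (adjusted p = 2.18e-04). All cortex values of LPR2 were under the dim limit, so both differences can be understated. Of the 3 genes, 2 were called in the comparison with salt (background 17.9%) and 2 in the comparison without salt (background 14.9%), where SIZ1 was lower in pericycle by 1.09 ± 0.252 (adjusted p = 0.016). That SIZ1 call was lost without cortex control replicate 1 or 2 or either pericycle control array (adjusted p between 0.052 and 0.0611). Without salt the other SIZ1 probe set differed in the same direction, by -0.74 ± 0.3, and was not called (limma adjusted p = 0.143). With salt the 2 SIZ1 probe sets disagreed. The one counted here differed by -0.32 ± 0.225 (adjusted p = 0.411), and the other was lower in pericycle by 1.43 ± 0.269 (adjusted p = 0.00477) and was called in every alternative run (adjusted p between 0.00144 and 0.0289). LPR1 was higher in pericycle with salt by 1.27 ± 0.365 (adjusted p = 0.0376), a call lost with only the groups compared (adjusted p = 0.119) with the replicate number as a block, and without any 1 of the cortex arrays or pericycle salt replicate 2. Its difference was 0.77 without pericycle salt replicate 1 (adjusted p = 0.0266). LPR1 lay under the dim limit on every array except pericycle salt replicate 1.

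The identity of the sorted cells bears on every value above. Of 24 marker loci chosen for root cell types, 7 had a single-gene probe set. Markers of the pericycle and its lateral root founders (2 of 5 loci) had list means of 6.84 to 7.49 in pericycle with salt and 6.57 to 7.29 in pericycle without salt, against 3.19 to 3.31 in cortex with salt and 3.09 to 3.67 in cortex without salt. Cortex markers (2 of 3 loci) went against the labels. Their list means were 3.50 to 3.89 in pericycle with salt and 3.69 and 4.07 in pericycle without salt, against 2.94 to 3.45 in cortex with salt and 3.29 to 3.53 in cortex without salt. Of these, AT1G62500 lay between 1.66 and 2.03 on all arrays, under the dim limit. The other, AT1G09750, was 5.11 to 6.12 in pericycle with salt, against 4.01 to 5.11 in cortex with salt, a difference of 1.04 ± 0.395 (log2, limma SE; adjusted p = 0.104). Without salt AT1G09750 was 5.36 and 6.38 in pericycle, against 4.80 to 5.36 in cortex, a difference of 0.82 ± 0.441 (adjusted p = 0.283). The cortex identity of the cells in which PAP20 was highest therefore rests on the line and not on these markers. Root hair markers (2 of 6 loci) were present in the cortex samples and had list means of 2.82 to 3.90 with salt, against 4.79 to 5.30 without it, opposite in direction to PAP20. Neither passed the limma test in cortex. EXPA7 differed by -1.26 ± 0.478 (adjusted p = 0.228) and EXPA18 by -1.85 ± 0.506 (adjusted p = 0.0821). The phloem marker OPS (1 of 3 loci) was 3.99 to 4.47 in cortex with salt and 3.99 to 4.49 without it. OPS was higher in pericycle than in cortex, by 1.67 ± 0.363 without salt (log2, limma adjusted p = 0.0122). With salt it was higher there by 2.82 ± 0.325 (limma adjusted p = 2.69e-04). No endodermis or xylem marker had a single-gene probe set in the annotation used. GAPDH 3' minus 5' differences in cortex were 0.70 to 0.87 with salt and 0.54 to 0.69 without it, higher with salt as PAP20 was. The part of other cell types or of RNA quality in the PAP20 values was not tested.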

How the data were processed

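The table deposited by the authors holds log2 values of 22810 probe sets on 11 arrays. Per the submitters' processing notes RMA and limma were used, with no version or role stated; the scale was inferred from the values, whose minima near 1 leave the treatment of low signals unknown. No genome build is named, so no coordinates are given. The values were used as deposited, and 64 array control probe sets were left out, leaving 22746.

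Genes came from the platform annotation and, by gene identifier, from RefSeq TAIR10.1. Exactly 1 gene was given for 13513 probe sets (13436 matched to RefSeq), several for 503 and none for 8730. A gene with several probe sets was represented by the one with the highest mean. The model in limma 3.58.1 (R 4.3.3) held all 11 arrays, with a mean per group (7 residual and 2.96 prior degrees of freedom). P values are two-sided and Benjamini-Hochberg adjusted over all probe sets, with a threshold of 0.05. The permutation test used scipy 1.17.1 and was added after the data were seen. Arrays give no read depth, and their number limits the precision. The fit was tested on simulated data with the same SD in every group for a given probe set. In the real data the median SD was 0.37 in pericycle with salt and 0.25 without it. In cortex it was 0.14 with salt and 0.18 without it. The simulation therefore does not show how the fit behaves under unequal spread. PAP20, the lists and the rules were chosen with earlier results of these data known. The genes named are PAP20, all symbols of PAP and a digit, the 8 nearest profiles, the 3 annotated genes on each side and the members of the phosphate list. The alternatives are in the closing section. No sequences are shown.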

Additional observations from a re-analysis of the deposited data

How the results depend on the processing

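For PAP20, all 84 recomputed values of its 5 contrasts kept their direction and their side of the threshold or stayed within 1 residual SD. Many of these differences could not move, since only the error model (array weights apart), the filter or an array of another group was changed. Leaving out each array in turn gave 3.02 to 3.56 for salt in cortex, 0.49 to 1.02 for salt in pericycle (limma adjusted p = 0.118 to 0.568), -2.83 to -2.22 for the difference of responses, -1.64 to -1.09 for pericycle minus cortex without salt and -4.17 to -3.64 with salt. With the replicate number as a block the pericycle difference was 0.61 (adjusted p = 0.403) and the cortex difference 3.24. The labels do not tie replicate numbers across groups, and the deviations of same-numbered arrays from their group means had correlations of -0.151 to 0.107, so the numbers were not taken as pairs. The replicate block gave 194 called probe sets, against 453 without it, for salt in pericycle, and 121 against 190 for the difference of responses; it changed no PAP20 result.

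The background counts varied with the setting. For salt in cortex limma called 946, but 4775 with array weights and 4487 with only the groups compared. For salt in pericycle array weights gave 32, and only the groups compared gave 0, with 1502 at an unadjusted p under 0.05. Without 1 array the counts ran from 362 (cortex salt replicate 3) to 1701 (pericycle salt replicate 1) for salt in cortex, 183 (cortex salt replicate 2 or 3) to 1124 (pericycle control replicate 1) for salt in pericycle, 53 (cortex salt replicate 3) to 635 (pericycle control replicate 1) for the difference of responses, 2258 to 5007 for pericycle minus cortex without salt and 2461 to 5102 with salt.

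Of the phosphate list, the count for salt in pericycle was 0 instead of 1 with trend and robust eBayes, array weights, only the groups compared, quantile normalization, no dim probe sets and the replicate block, and 0 to 1 without single arrays; it was 1 without pericycle salt replicate 1 or 3, where SIZ1 passed, and without pericycle control replicate 1, where LPR2 passed and SIZ1 did not. The count for pericycle minus cortex with salt was 1 instead of 2 with only the groups compared, without dim probe sets and with the replicate block. Without single arrays it was 1 to 2 in that comparison and 1 to 2 without salt. Small tested differences changed sign without passing. Without single arrays the other SIZ1 probe set ran from -0.16 to 0.16 and PAP85 from -0.18 to 0.0044 in cortex. AT3G52800 ran from -0.045 to 0.20 between cell types with salt. With quantile normalization that SIZ1 difference was -0.0085. The causes were not tested. Counts of other purple acid phosphatases could not be run, since none had a single-gene probe set in the annotation used.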
